A study of Mus musculus with 4 samples.

Results

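The metallothioneins Mt1, Mt2 and Mt3 and 6 iron handling genes (Fth1, Ftl1, Trf, Tfrc, Slc40a1 and Hjv) were followed by droplet single-cell RNA sequencing through mouse RPE (retinal pigment epithelium) and choroid. The members were chosen by gene symbol, and all 9 were found as rows of the count matrices, 9 of the 118 genes of iron, heme, zinc and copper handling that are described here. Scraped RPE-choroid was dissociated with enzymes, depleted of dead cells and run on the 10x Genomics system. There was 1 library in each of 4 groups: Vldlr-/- mice at 1 month, WT mice at 1 month, Vldlr-/- mice at 2 months and WT mice at 2 months. Vldlr encodes the very low density lipoprotein receptor, and mice without it are used as a model of new vessel growth beneath the retina. Strain, sex, the form of the Vldlr allele and the number of animals pooled per library are not given in the sources used here.

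With 1 library per group no difference could be tested. Levels are unique molecules (UMIs) of a gene summed over the barcodes of a class and library, divided by all UMIs of that sum and multiplied by 1000000 (CPM), and exact Poisson 95% intervals around them cover counting error only. A gene counted as measured with at least 30 UMIs over both libraries of an age, and as called when the knockout and wild-type levels were at least 2-fold apart. The software named in the file headers differed between the ages (Cell Ranger 6.0.2 at 1 month, 7.0.1 at 2 months), so age and counting cannot be told apart, and values of the 2 ages are only set side by side.

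The libraries held 11194301 to 23070271 UMIs, and 6529 barcodes passed the filters, with at most 1 barcode sequence shared between any pair of libraries. RPE-like barcodes numbered 165 of 1804 in the knockout and 236 of 1541 in the wild type at 1 month, and 608 of 1138 in the knockout and 1457 of 2046 in the wild type at 2 months. They carried Rpe65, Rgr, Ttr, Rdh5, Rlbp1 and Lrat, but Best1, another RPE marker, had only 0 to 6 UMIs per library. At 1 month most of them (129 knockout, 181 wild type) lay in a cluster of shallow barcodes, and the median RPE-like barcode held 1809 UMIs in the knockout and 2068 in the wild type, against 9416 and 8261 at 2 months. From 72 to 88.7% of RPE-like barcodes had under 1000 CPM of Malat1, a nuclear RNA. Vldlr itself stood at 10.7 CPM in the knockout and 130 CPM in the wild type at 1 month, and at 27 CPM in the knockout and 177 CPM in the wild type at 2 months, so the labels and the targeted gene went the same way.

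Metallothioneins are small cysteine-rich proteins that hold zinc and copper, and the metal-sensing factor Mtf1 switches on Mt1 and Mt2 through metal response elements. Ferritin, built from heavy (Fth1) and light (Ftl1) chains, stores iron. Transferrin (Trf) carries iron outside the cell, the transferrin receptor (Tfrc) takes it in, and ferroportin (Slc40a1) is the exporter. When iron is scarce, iron regulatory proteins bind stem-loops in messenger RNA, which blocks ferritin and ferroportin translation and protects Tfrc RNA from decay. The RPE takes up iron and metal with the outer segments it ingests and stands between the choroidal blood and the photoreceptors.

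The stem-loops are shown because they separate the members into stored or exported iron and iron taken in. An unpaired C, a loop that opens with CAGTG and 5 bases on either side of the loop able to pair were searched together in the sense strand of coding transcripts of GENCODE M21 (GRCm38). The pattern was found in the 5′ UTR of Fth1 (chr19:9982738-9982754, plus strand), Ftl1 (chr7:45459785-45459801, minus strand) and Slc40a1 (chr1:45925471-45925487, minus strand). It was found 4 times in the 3′ UTR of Tfrc (plus strand), at chr16:32631225-32631241, chr16:32631604-32631620, chr16:32631669-32631685 and chr16:32631716-32631732. Of 21630 coding genes, 0.143% held the pattern in a 5′ UTR and 0.592% in a 3′ UTR. Capitals mark the first 5 bases of the loop, and T stands for U.
Fth1: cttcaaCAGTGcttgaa
Ftl1: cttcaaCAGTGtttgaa
Slc40a1: cagctaCAGTGttagct
Tfrc 1: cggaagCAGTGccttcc
Tfrc 2: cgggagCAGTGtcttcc
Tfrc 3: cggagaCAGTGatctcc
Tfrc 4: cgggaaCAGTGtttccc
These counts measure RNA, and translation was not measured.

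Mt1 (chr8:94179082-94180327), Mt2 (chr8:94172664-94173568) and Mt3 (chr8:94152607-94154146) lie in a row on the plus strand of chromosome 8. Their upstream sequence is shown because Mt1 and Mt2 moved together in several classes below. The metal response element core, TGCACNC or TGCGCNC on either strand, was searched in the 250 bases before each RefSeq start (GRCm38.p6). It occurred 3 times before Mt2, 1 time before Mt1 and 0 times before Mt3, while 21.4% of 32851 promoters of that length held at least 1 and 1.26% at least 3. For Mt2 the window is chr8:94172368-94172617, plus strand, with the cores in capitals.
Mt2: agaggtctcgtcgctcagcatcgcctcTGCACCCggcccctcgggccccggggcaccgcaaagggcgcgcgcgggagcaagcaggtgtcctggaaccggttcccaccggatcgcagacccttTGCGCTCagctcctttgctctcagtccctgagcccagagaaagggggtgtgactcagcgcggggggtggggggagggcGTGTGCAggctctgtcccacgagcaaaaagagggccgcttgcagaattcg
For Mt1, GENCODE annotates 3 transcript starts, at 94179082, 94179211 and 94179241, so most sequence near the later starts falls outside the RefSeq window. The 159 bases from the first start to the last held 4 cores, centred in the stretches chr8:94179085-94179103, chr8:94179103-94179121, chr8:94179167-94179185 and chr8:94179181-94179199, where the third core reads on the minus strand.
Mt1 a: gagctcTGCACTCcgcccg
Mt1 b: gaaaagTGCGCTCggctct
Mt1 c: cctgctGGGTGCAaaccct
Mt1 d: acccttTGCGCCCggactc
A match is a description of letters and does not show that a factor binds there.

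The metallothioneins and transferrin were RPE genes in these libraries. RPE-like barcodes were 2466 of the 6529 kept. Of all UMIs in the kept barcodes, 95.9% of Mt1, 95.4% of Mt2, 97.6% of Mt3 and 97.5% of Trf lay in RPE-like barcodes. So did 95.2% of the only 42 Hjv UMIs. The share was 63.7% for Tfrc, 49.4% for Ftl1 and 34.9% for Fth1, whereas only 1.96% of the 357 Slc40a1 UMIs did. Mt1, Mt2 and Mt3 together made up 2.54% of RPE-like UMIs in the knockout and 2.28% in the wild type at 1 month, and 1.4% in the knockout and 1.58% in the wild type at 2 months. After each barcode was thinned to 1000 UMIs, Mt1 was seen in 553 of 563 knockout and 1399 of 1418 wild-type RPE-like barcodes at 2 months. In B-like cells, which should lack RPE transcripts, the thinned share with Mt1 at 1 month was 2.29% in the knockout and 4.37% in the wild type, against 100% in RPE-like barcodes of both genotypes (median depths of 5997 UMIs in the knockout and 6138 in the wild type for B-like barcodes, and of 1809 in the knockout and 2068 in the wild type for RPE-like ones).

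**Figure D1:**
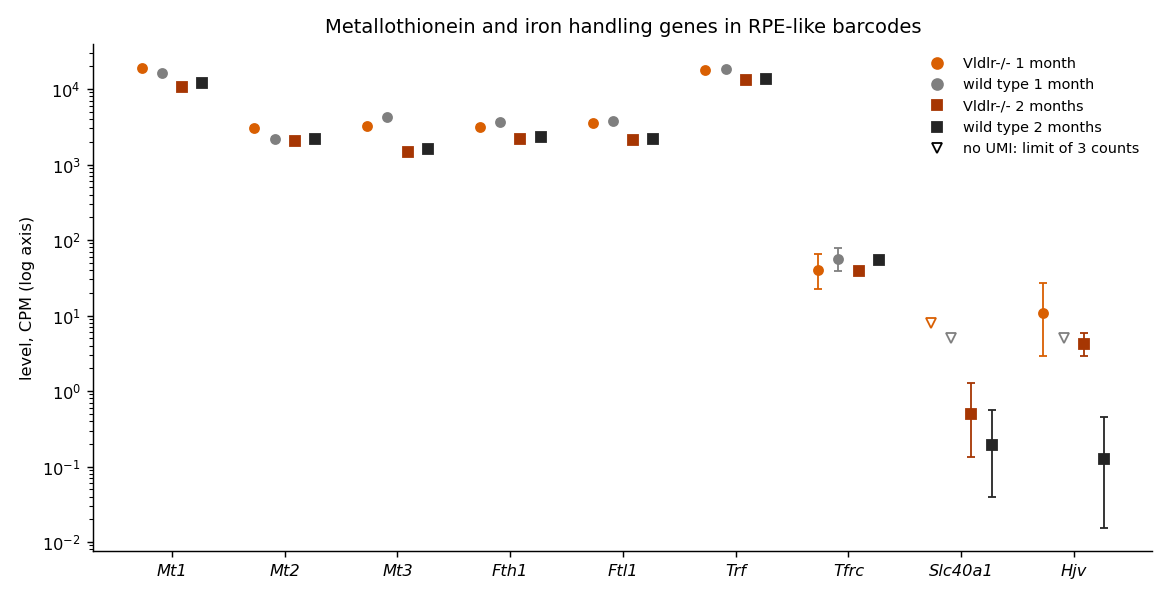
Level (CPM, log axis) of each member in RPE-like barcodes of the 4 libraries, with exact Poisson 95% intervals; open triangles mark the limit that a count of 0 allows. Mt1 and Trf sit above 10000 CPM in every library, and Hjv is the member whose knockout and wild-type points lie far apart.

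Mt1 and Mt2 were slightly higher in knockout RPE-like barcodes at 1 month and slightly lower at 2 months. Mt1 stood at 19109 CPM in the knockout and 16330 CPM in the wild type at 1 month, and at 10539 CPM in the knockout and 12014 CPM in the wild type at 2 months. The log2 ratio of knockout over wild type was 0.23 (interval 0.18 to 0.27) at 1 month and -0.19 (-0.20 to -0.18) at 2 months. Both are far under 2-fold. Mt2 stood at 3045 CPM in the knockout and 2200 CPM in the wild type at 1 month, and at 2026 CPM in the knockout and 2152 CPM in the wild type at 2 months, with log2 ratios of 0.47 and -0.09. At 2 months the direction of Mt2 did not hold when barcodes were split at 1000 CPM of Malat1. Its log2 ratio was 0.06 in Malat1-rich and 0.04 in Malat1-poor barcodes. Mt1 kept its direction in Malat1-poor barcodes (-0.18) and was at 0.00 in Malat1-rich ones. The Mt2 locus overlaps the antisense gene Gm45774, which had 0 to 13 RPE-like UMIs per library.

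Mt3, the form first known as a growth inhibitory factor of brain, did not follow Mt1 and Mt2 at 1 month. It stood at 3243 CPM in the knockout and 4286 CPM in the wild type at 1 month, and at 1458 CPM in the knockout and 1621 CPM in the wild type at 2 months. The log2 ratios were -0.40 (-0.50 to -0.30) and -0.15 (-0.18 to -0.12). The 2-month ratio was 0.30 (0.24 to 0.36) in Malat1-rich barcodes and -0.22 in Malat1-poor ones. At 1 month 5.89 Mt1 UMIs were counted per Mt3 UMI in the knockout and 3.81 in the wild type, and at 2 months 7.23 in the knockout and 7.41 in the wild type.

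Ferritin RNA summed over all RPE-like barcodes was close between the genotypes. Fth1, the chain with ferroxidase activity, stood at 3131 CPM in the knockout and 3687 CPM in the wild type at 1 month, and at 2199 CPM in the knockout and 2283 CPM in the wild type at 2 months (log2 -0.24 and -0.05). Ftl1, the chain that helps the iron core form, stood at 3557 CPM in the knockout and 3737 CPM in the wild type at 1 month, and at 2144 CPM in the knockout and 2200 CPM in the wild type at 2 months (log2 -0.07 and -0.04). The Ftl1 interval at 1 month, -0.17 to 0.03, includes 0. After thinning to 1000 UMIs the 1-month log2 ratio of Fth1 was 0.06. The 2-month values joined barcodes that differed. The Ftl1 ratio was 0.21 (0.16 to 0.26) in Malat1-rich barcodes and -0.15 (-0.18 to -0.11) in Malat1-poor ones. For Fth1 these were 0.03 (-0.01 to 0.07) and -0.22 (-0.26 to -0.19). The near copy Ftl1-ps1 drew 16 to 203 RPE-like UMIs per library, so some Ftl1 reads may be split between them.

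Trf stood at 17711 CPM in the knockout and 18324 CPM in the wild type at 1 month, and at 13262 CPM in the knockout and 13428 CPM in the wild type at 2 months. The log2 ratios were -0.05 at 1 month and -0.02 at 2 months, and the 2-month value joined barcodes that differed. In barcodes with at least 1000 CPM of Malat1 (170 knockout, 165 wild type), Trf was at 13545 CPM in the knockout and 9419 CPM in the wild type, a log2 ratio of 0.52. In the others (438 knockout, 1292 wild type) it was at 13017 CPM in the knockout and 14473 CPM in the wild type, a log2 ratio of -0.15. Thinned to 1000 UMIs, which gives each barcode equal weight, Trf had a log2 ratio of -0.33 at 2 months. The GENCODE gene Gm20425 overlaps Trf on the same strand.

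Tfrc was lower in the knockout at both ages, by less than 2-fold. It had 15 UMIs (40 CPM) in the knockout and 34 UMIs (56.5 CPM) in the wild type at 1 month, and 315 UMIs (39 CPM) in the knockout and 849 UMIs (54 CPM) in the wild type at 2 months. The log2 ratio was -0.47 at each age, with an interval of -1.48 to 0.42 at 1 month that includes 0 and of -0.66 to -0.28 at 2 months. Among thinned barcodes, with only 31 knockout and 61 wild-type UMIs, the 2-month ratio was 0.37, and the cause was not tested. It was -0.21 (-0.61 to 0.20) in Malat1-rich and -0.30 (-0.54 to -0.08) in Malat1-poor barcodes, without thinning. Slc40a1 had 0 UMIs in both genotypes at 1 month, and 4 in the knockout and 3 in the wild type at 2 months, which at these depths is no detectable difference. By a limit of 3 counts, the 0 at 1 month allows up to 7.99 CPM in the knockout and 4.99 CPM in the wild type, and the exact Poisson upper ends were 9.83 CPM in the knockout and 6.13 CPM in the wild type.

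Hjv was the member that differed. It encodes hemojuvelin, a BMP coreceptor that promotes hepcidin production, and GENCODE lists it under its older name Hfe2 (chr3:96525172-96529210, plus strand). It had 4 UMIs in the knockout and 0 in the wild type at 1 month, and 34 UMIs in the knockout and 2 in the wild type at 2 months. Knockout UMIs came from 4 of 165 barcodes at 1 month (2.42%, exact Clopper-Pearson interval 0.664 to 6.09%) and 26 of 608 at 2 months (4.28%, 2.81 to 6.2%). Wild-type UMIs came from 0 of 236 barcodes at 1 month, which allows a share of up to 1.27% by a limit of 3 counts (exact upper end 1.55%), and 2 of 1457 at 2 months (0.137%, 0.0166 to 0.495%). At 1 month the gene did not reach 30 UMIs, and the exact interval of its log2 ratio began at 0.08 and had no upper end. At 2 months the level was 4.21 CPM in the knockout and 0.127 CPM in the wild type, a log2 ratio of 4.75 (3.09 to 8.15).

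No more than 4 Hjv UMIs lay in any barcode. At 2 months Hjv had 23 UMIs in the knockout and 2 in the wild type among Malat1-poor RPE-like barcodes, and 11 in the knockout and 0 in the wild type among Malat1-rich ones. By cluster, the knockout had 16 UMIs in cluster 3, 11 in cluster 9, 4 in cluster 4, 2 in cluster 0 and 1 in cluster 15, and both wild-type UMIs were in cluster 3. Cluster 5 had none in either genotype. Outside RPE-like barcodes 2 Hjv UMIs were found in all. Thinned to 1000 UMIs per barcode Hjv had too few UMIs to be measured.

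Of the 9 members, 7 were measured in RPE-like barcodes at 1 month and none was called. Among the 3647 genes measured there, 3.48% were at least 2-fold higher in the knockout and 2.8% at least 2-fold lower. At 2 months 8 were measured and Hjv alone was called, among 11856 genes of which 3.27% were at least 2-fold higher in the knockout and 1.07% lower. Hjv lies among the 2149 genes with 30 to 100 UMIs at 2 months. Of these, 12.1% were at least 2-fold higher in the knockout and 3.63% at least 2-fold lower.

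**Figure D2:**
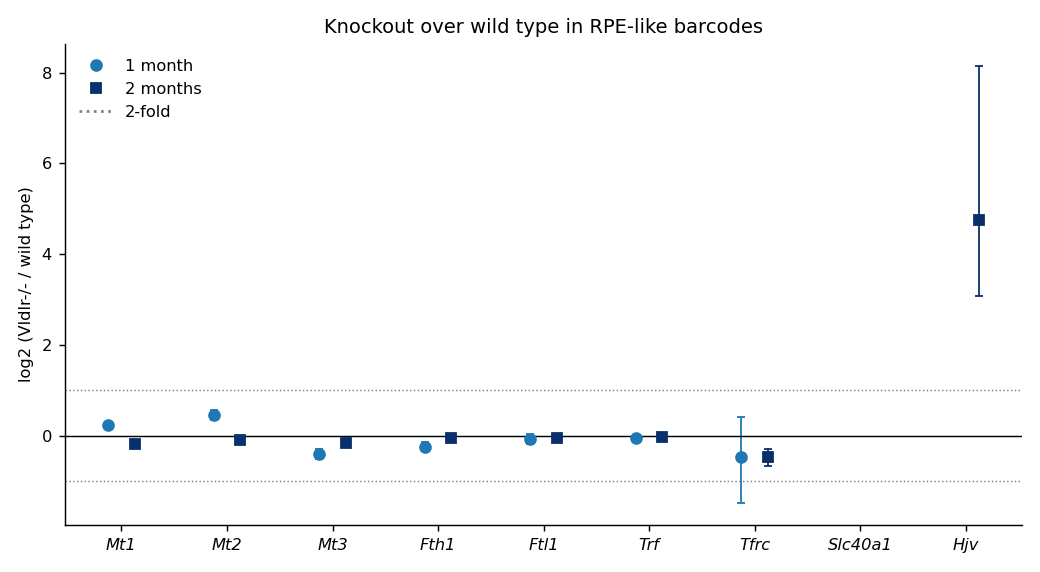
Log2 ratio of knockout over wild type in RPE-like barcodes for each measured member at 1 and 2 months, with exact 95% counting intervals; dotted lines mark 2-fold. The points of all members but Hjv lie inside the dotted lines, and Hjv at 2 months stands at 4.75.

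Hjv neighbours were examined after its value was seen. Of the 8 other genes annotated within 100000 bases of it, Txnip, Polr3gl and Lix1l were measured at 2 months. Txnip, which encodes an inhibitor of thioredoxin, had 105 UMIs in the knockout and 482 in the wild type, a log2 ratio of -1.23, opposite in direction to Hjv. Polr3gl, a subunit of RNA polymerase III, had a log2 ratio of 0.20 and Lix1l one of -0.13. Txnip was lower in the knockout both in Malat1-rich barcodes (14.7 CPM in the knockout, 32 CPM in the wild type) and in Malat1-poor ones (11.6 CPM in the knockout, 30.3 CPM in the wild type).

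**Figure D3:**
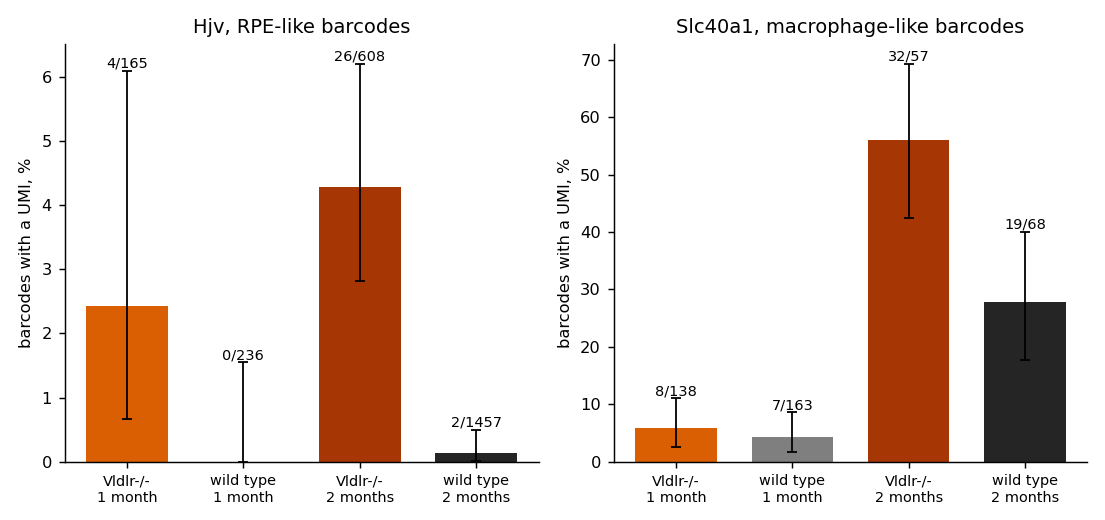
Share of barcodes with at least 1 UMI (%, axis from 0) of Hjv in RPE-like barcodes and of Slc40a1 in macrophage-like barcodes, with exact Clopper-Pearson 95% intervals and the barcode counts above the bars. Knockout bars are higher than wild-type bars in both plots, and the Hjv intervals do not overlap at 2 months.

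In RPE-like barcodes the iron and metal list had median log2 ratios close to those of all genes measured. At 1 month 3.48% of all genes measured were at least 2-fold higher in the knockout and 2.8% at least 2-fold lower, with a median of 0.00. Of the list, 50 of 118 genes were measured, with a median of -0.08, 3 at least 2-fold higher in the knockout and 2 at least 2-fold lower. The higher ones were Ireb2, which encodes an iron regulatory protein (66.6 CPM from 25 UMIs in the knockout, 23.3 CPM from 14 in the wild type), Hscb, a cochaperone of iron-sulfur assembly (63.9 CPM from 24 UMIs in the knockout, 16.6 CPM from 10 in the wild type), and the zinc transporter gene Slc30a5 (31 UMIs in the knockout, 22 in the wild type, log2 1.17). The lower ones were Urod, of heme synthesis (9 UMIs in the knockout, 38 in the wild type, log2 -1.34), and Commd1, of copper handling (27 UMIs in the knockout, 89 in the wild type, log2 -1.02). These 5 rested on few UMIs, and none was called after thinning. None was called either with at most 15% mitochondrial UMIs. The new clustering at that limit left only 66 knockout and 95 wild-type RPE-like barcodes, because most shallow ones fell in a cluster led by hemoglobin genes. At 2 months Ireb2 was at 56.7 CPM in the knockout and 56.8 CPM in the wild type, and none of the other 4 was called.

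At 2 months 3.27% of all genes measured were at least 2-fold higher in the knockout and 1.07% at least 2-fold lower, with a median log2 ratio of 0.07. Of the list, 97 of 118 genes were measured, with a median of -0.04, 2 at least 2-fold higher in the knockout and 0 at least 2-fold lower. The higher ones were Hjv and Cp, which encodes the ferroxidase ceruloplasmin (28 UMIs in the knockout, 17 in the wild type, log2 1.67, interval 0.76 to 2.64). Of the Cp UMIs, 12 of 28 in the knockout came from 3 barcodes of cluster 3. Hephaestin (Heph), the membrane ferroxidase, stood at 41.1 CPM in the knockout and 57.4 CPM in the wild type (log2 -0.48). Ncoa4, the receptor that brings ferritin to lysosomes, stood at 37.1 CPM in the knockout and 53.5 CPM in the wild type (log2 -0.52), and Slc11a2, an importer of ferrous iron, at 19.9 CPM in the knockout and 28.4 CPM in the wild type (log2 -0.51). Hmox1, the inducible heme oxygenase, stood at 18.2 CPM in the knockout and 12.5 CPM in the wild type (log2 0.55). None of these 4 reached 2-fold, though Ncoa4 did after thinning. The Cp call was lost in Malat1-rich barcodes, in Malat1-poor ones and after thinning. In each Malat1 part Cp had too few UMIs to count as measured. Its log2 ratio in Malat1-poor barcodes was 2.13 (0.98 to 3.40), from 17 UMIs in the knockout and 11 in the wild type. In Malat1-rich ones it was 0.62 (-0.89 to 2.39), from 11 UMIs in the knockout and 6 in the wild type.

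In the metallothionein and zinc group 17 of 20 measured genes were below 0 at 2 months, with a median log2 ratio of -0.10, beside 40.6% of all measured genes below 0. At 1 month the group ran the other way, with 2 of 8 measured genes below 0 and a median of 0.19, beside 49.9% of all measured genes below 0. At 2 months Mtf1, the metal-sensing factor, had a log2 ratio of -0.09 (interval -0.38 to 0.19), and Slc30a1, a zinc exporter gene, one of -0.37 (-0.65 to -0.11). All 5 measured genes of iron storage were below 0 at 2 months, with a median of -0.05, and 3 of 5 at 1 month, with a median of -0.07. These 2-month directions did not hold for the members among them in Malat1-rich barcodes. There the log2 ratio was 0.00 for Mt1, 0.06 for Mt2, 0.30 for Mt3, 0.03 for Fth1 and 0.21 for Ftl1. The non-members of the list with the highest wild-type RPE-like levels at 2 months were Lrp1, a receptor that also takes up heme-hemopexin (564 CPM in the knockout, 660 CPM in the wild type), Pcbp2, an iron chaperone gene (326 CPM in the knockout, 344 CPM in the wild type), and Slc48a1, a heme transporter gene (286 CPM in the knockout, 305 CPM in the wild type). In the knockout Alad, which encodes an enzyme of heme synthesis, stood above Pcbp2 and Slc48a1, at 373 CPM in the knockout and 206 CPM in the wild type (log2 0.86, interval 0.79 to 0.93), under 2-fold; it was named after its value was seen.

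RPE-like clusters differed among themselves in ferritin more than the genotypes did. At 2 months Fth1 stood at 567 CPM in the knockout and 1244 CPM in the wild type in cluster 5, and at 3425 CPM in the knockout and 3312 CPM in the wild type in cluster 3. In cluster 5 the knockout was lower for Mt1 (log2 -0.65), Mt3 (-0.78), Fth1 (-1.13), Ftl1 (-0.87) and Trf (-0.46). In cluster 9, the Malat1-rich cluster, Trf stood at 14082 CPM in the knockout and 9509 CPM in the wild type, while Mt1 had a log2 ratio of 0.01. Since these genes took part in the clustering, the cluster values describe where the counts lie. Across thinned barcodes within a library, which share depth but not quality, Pearson's r of log2 levels was 0.39 for Mt1 with Mt2 in the knockout and 0.40 in the wild type at 2 months (563 and 1418 barcodes), and 0.47 for Fth1 with Ftl1 in the knockout and 0.51 in the wild type. For Trf with Fth1 it was -0.16 in the knockout and 0.00 in the wild type. Mt1 was as close to Mt3 (0.42 in the knockout, 0.40 in the wild type) and to Fth1 (0.46 in each) as to Mt2. At 1 month r of Mt1 in the wild type was 0.13 with Mt2, 0.24 with Mt3 and 0.37 with Fth1. In the knockout at 1 month these were 0.41, 0.18 and 0.28.

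Levels in other classes followed a different order for each member. In knockout tissue at 2 months Mt1, at 10539 CPM in RPE-like barcodes, was at 4017 CPM in melanocyte-like, 1025 in mural-like, 968 in fibroblast-like, 788 in macrophage-like, 343 in endothelial-like and 64.9 in rod-like ones, where only the mural-like and fibroblast-like intervals overlapped. In wild-type tissue Mt1, at 12014 CPM in RPE-like barcodes, was at 1440 CPM in fibroblast-like, 1120 in macrophage-like, 936 in mural-like, 487 in endothelial-like and 317 in rod-like ones, and the intervals of neighbours in that order did not overlap. Melanocyte-like barcodes, of which the wild type had only 18, were not compared. Fth1 was highest in macrophage-like barcodes at 2 months, at 16712 CPM in the knockout and 11676 CPM in the wild type, followed by fibroblast-like ones at 5913 CPM in the knockout and 5743 CPM in the wild type. Tfrc was highest in rod-like barcodes, at 62.9 CPM in the knockout and 88.5 CPM in the wild type at 2 months. By thinned share in the wild type at 2 months, 5 of the 9 members (Mt1, Mt2, Mt3, Trf and Hjv) had their highest value in RPE-like barcodes, Hjv on no more than 2 UMIs.

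**Figure D4:**
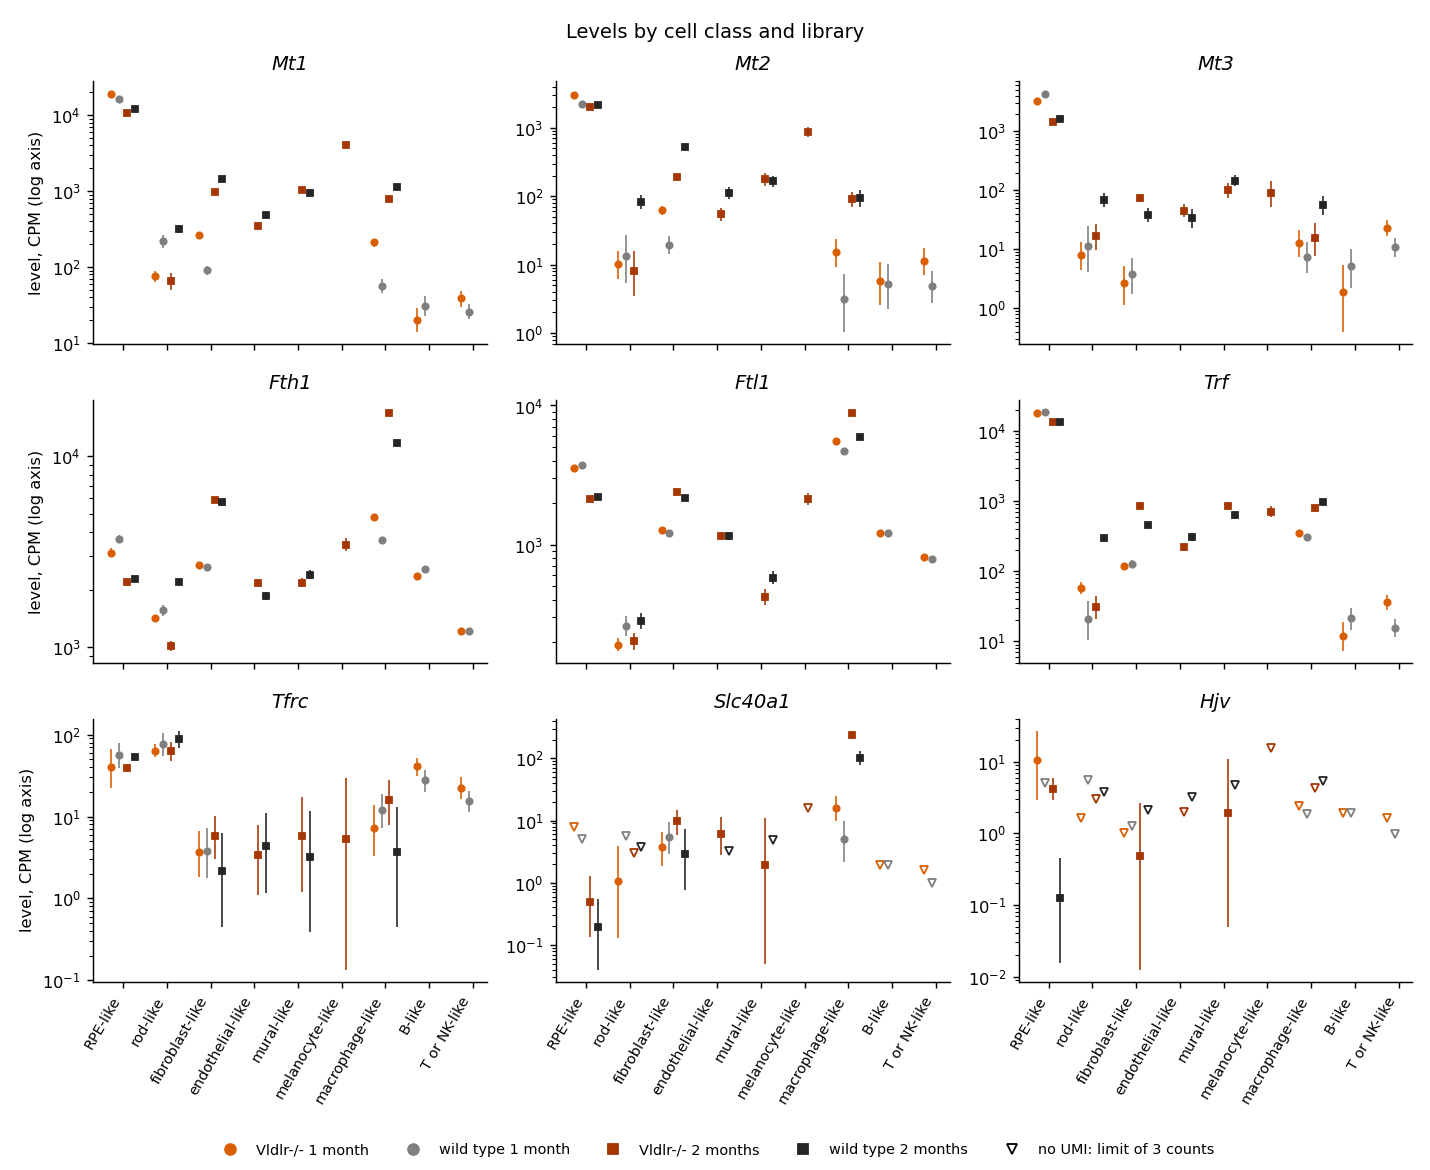
Level (CPM, log axis) of each member by cell class in the 4 libraries, for classes with at least 30 barcodes, with exact Poisson 95% intervals and open triangles at the limit that a count of 0 allows. The metallothioneins and Trf peak in RPE-like barcodes, Fth1, Ftl1 and Slc40a1 in macrophage-like ones at 2 months, and Tfrc in RPE-like and rod-like ones.

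Free RNA from broken RPE cells could add to these levels, so each was set beside the RPE transcripts Ttr, Rgr, Rpe65 and Rdh5 in the same barcodes. In rod-like barcodes at 2 months these 4 stood at 0.233% of their RPE-like level in the knockout and 1.58% in the wild type. In the same barcodes Mt1 was at 0.616% of its RPE-like level in the knockout and 2.64% in the wild type, and Trf at 0.233% in the knockout and 2.18% in the wild type. In fibroblast-like barcodes at 1 month the 4 RPE transcripts stood at 0.139% in the knockout and 0.142% in the wild type, while Mt1 was at 1.39% in the knockout and 0.556% in the wild type. In mural-like barcodes at 2 months they stood at 3.73% in the knockout and 8.82% in the wild type. Mt1 there was at 9.73% in the knockout and 7.79% in the wild type. Endothelial-like barcodes at 2 months held them at 2.79% in the knockout and 2.86% in the wild type. Mt1 in those was at 3.25% in the knockout and 4.05% in the wild type. Knockout melanocyte-like barcodes held them at 10.1% and Mt1 at 38.1%. The part of free RNA in the order of classes was not tested.

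Outside RPE-like barcodes 58 entries (a member in a class at an age) were measured and 17 were called. No member was called in B-like barcodes at 1 month (2.32% of all genes measured there were at least 2-fold apart) or in mural-like ones at 2 months (4.89%). In T or NK-like barcodes at 1 month 3 of 7 measured members were called higher in the knockout (2.74% of all genes there were at least 2-fold apart): Mt2, Mt3 and Trf, from 21, 43 and 68 UMIs in the knockout and 15, 33 and 47 in the wild type. The RPE transcripts in these barcodes stood at 0.154% of their RPE-like level in the knockout and 0.0966% in the wild type, and their part in these calls was not tested. In endothelial-like barcodes at 2 months 1 of 6 was called (5.2% of all genes): Mt2, at 54.2 CPM in the knockout and 111 CPM in the wild type (log2 -1.03).

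**Figure D5:**
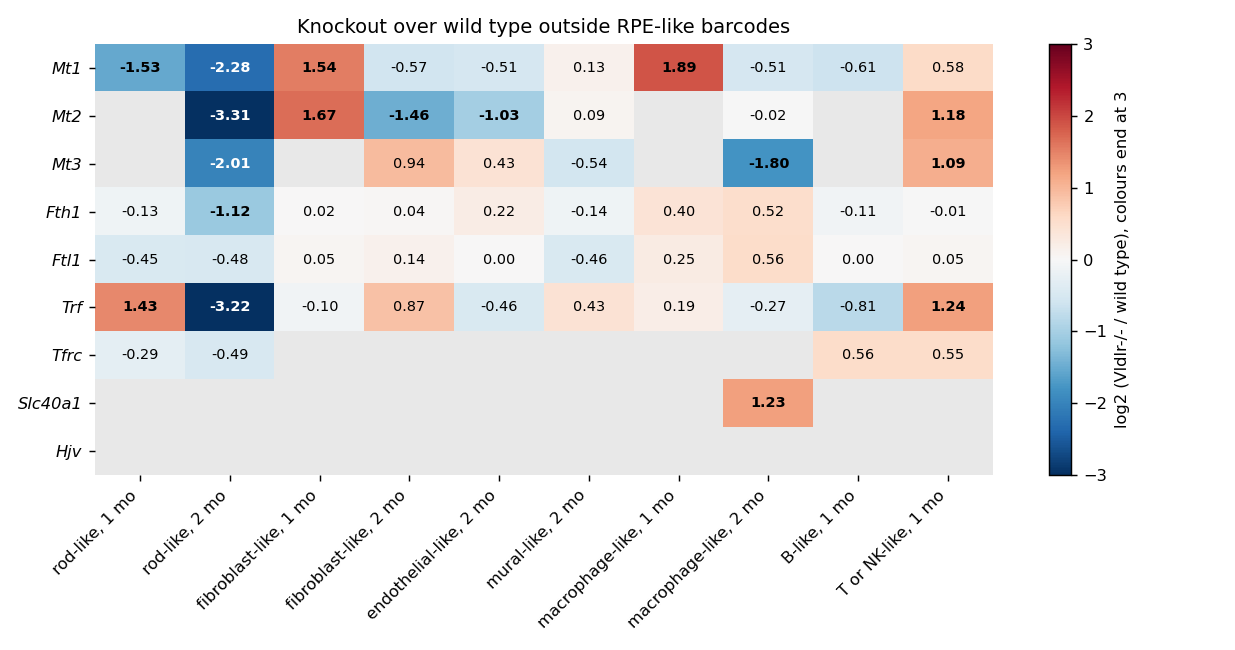
Log2 ratio of knockout over wild type for each measured member in the other classes, by age; bold numbers are at least 2-fold, and grey cells were not measured. Mt1 and Mt2 are higher in knockout fibroblast-like barcodes at 1 month and lower at 2 months, and the metallothioneins, Fth1 and Trf are lower in knockout rod-like barcodes at 2 months.

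In fibroblast-like barcodes Mt1 and Mt2 differed in opposite directions at the 2 ages. At 1 month 2 of 5 measured members were called (3.51% of all genes): Mt1 had 790 UMIs (265 CPM) in the knockout and 214 UMIs (90.9 CPM) in the wild type, log2 1.54 (1.33 to 1.77), and Mt2 had 186 UMIs (62.5 CPM) in the knockout and 46 UMIs (19.5 CPM) in the wild type, log2 1.67 (1.21 to 2.18). At 2 months 1 of 6 was called (3.84% of all genes): Mt2 stood at 188 CPM in the knockout and 516 CPM in the wild type, log2 -1.46 (-1.64 to -1.28), and Mt1 at 968 CPM in the knockout and 1440 CPM in the wild type, log2 -0.57. Different clusters held the class at the 2 ages. At 1 month most barcodes were in cluster 2, with Mt1 at 265 CPM in the knockout and 60.3 CPM in the wild type. The log2 ratio of Mt1 there was 2.13, against 1.02 in cluster 24, 0.48 in cluster 22 and 0.31 in cluster 13, where the interval included 0. For Mt2 it was 2.87 in cluster 2 (58 UMIs in the knockout, 7 in the wild type) and 0.52 (-0.07 to 1.18) in cluster 22, which held most Mt2 UMIs of the class, 104 in the knockout and 29 in the wild type. At 2 months most were in cluster 7, with Mt1 at 661 CPM in the knockout and 1404 CPM in the wild type (log2 -1.09). In cluster 13 at 2 months, with 14 knockout and 10 wild-type barcodes, Mt1 stood at 9713 CPM in the knockout and 762 CPM in the wild type, and Trf at 17671 CPM in the knockout and 277 CPM in the wild type. The sum over these 14 knockout barcodes thus held Trf at an RPE-like level, and its spread over single barcodes is not given here. The 14 barcodes gave 725 of the 1995 Mt1 UMIs of the 2-month knockout class.

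Fibroblast-like barcodes of the 2-month knockout also carried more RPE transcripts, 3.36% of the RPE-like level beside 1.6% in the wild type. Mt3 (74.2 CPM in the knockout, 38.5 CPM in the wild type, log2 0.94) and Trf (848 CPM in the knockout, 463 CPM in the wild type, log2 0.87), both RPE genes, were higher too, and the 14 knockout barcodes of cluster 13 held 1319 Trf and 98 Mt3 UMIs. In cluster 7 Trf was at 229 CPM in the knockout and 479 CPM in the wild type (log2 -1.06), and Mt3 at 30.4 CPM in the knockout and 38 CPM in the wild type (log2 -0.32, interval -0.90 to 0.26), so both class values turned sign there. Mt2 was lower in the class, and with the RPE profile subtracted its log2 ratio was -1.98. Mt1 and Mt2 are also known glucocorticoid targets. At 2 months the summed level of 12 other such targets in fibroblast-like barcodes was 2182 CPM in the knockout and 3132 CPM in the wild type, with 1 of 12 higher in the knockout. At 1 month, when Mt1 and Mt2 were higher, 5 of 12 were higher in the knockout and the sums were 2502 CPM in the knockout and 2635 CPM in the wild type. The summed level of 20 immediate early genes that tissue dissociation raises was 14654 CPM in the knockout and 21783 CPM in the wild type at 1 month, and 3776 CPM in the knockout and 3257 CPM in the wild type at 2 months, and their part was not tested.

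Macrophage-like barcodes carried the iron exporter. At 2 months 2 of 7 measured members were called (8.97% of all genes): Slc40a1 was higher in the knockout and Mt3 lower. Slc40a1 had 168 UMIs (241 CPM) in the knockout and 56 UMIs (102 CPM) in the wild type, log2 1.23 (0.79 to 1.70). It was seen in 32 of 57 knockout barcodes (56.1%, 42.4 to 69.3%) and 19 of 68 wild-type barcodes (27.9%, 17.7 to 40.1%), with median depths of 10603 UMIs in the knockout and 7530 in the wild type. Thinned to 1000 UMIs the shares were 17.5% in the knockout and 8.33% in the wild type, with overlapping intervals of 8.75 to 29.9% and 2.76 to 18.4%. In RPE-like barcodes the share was 0.658% in the knockout and 0.206% in the wild type. At 1 month Slc40a1 had 20 UMIs in the knockout, 11 of them in 1 barcode, and 8 in the wild type.

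The class joined a C1qa-led cluster and a Lyz2-led one, and all Slc40a1 UMIs of the class lay in the first. Within the C1qa-led cluster alone (55 knockout and 57 wild-type barcodes at 2 months) Slc40a1 was at 245 CPM in the knockout and 128 CPM in the wild type, a log2 ratio of 0.93 that is under 2-fold. Fth1 in that cluster was at 17002 CPM in the knockout and 13920 CPM in the wild type (log2 0.29), and Ftl1 at 8880 CPM in the knockout and 6399 CPM in the wild type (log2 0.47). At 1 month Fth1 in the cluster was at 24007 CPM in the knockout and 17585 CPM in the wild type, and Ftl1 at 17047 CPM in the knockout and 12993 CPM in the wild type. Both ferritin chains were thus higher in the knockout at each age there, by less than 2-fold. Mt3 had 11 UMIs in the knockout and 31 in the wild type at 2 months (log2 -1.80), beside RPE transcripts at 0.679% of their RPE-like level in the knockout and 3.33% in the wild type.

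At 1 month 1 of 4 measured members was called in macrophage-like barcodes (3.95% of all genes). Mt1 had 261 UMIs (211 CPM) in the knockout and 90 UMIs (56.8 CPM) in the wild type, log2 1.89 (1.54 to 2.26). The RPE transcripts in these barcodes stood at 0.307% of their RPE-like level in the knockout and 0.122% in the wild type, and with the RPE profile subtracted the log2 ratio of Mt1 was 2.04. It was higher in the Lyz2-led cluster (137 CPM in the knockout, 21.5 CPM in the wild type) and, by less than 2-fold, in the C1qa-led one (833 CPM in the knockout, 581 CPM in the wild type). At 2 months Mt1 was lower, at 788 CPM in the knockout and 1120 CPM in the wild type (log2 -0.51), and with the RPE profile subtracted its log2 ratio was -0.04. The sum of the 12 glucocorticoid targets in the class was 2429 CPM in the knockout and 2171 CPM in the wild type at 1 month, and 1252 CPM in the knockout and 2477 CPM in the wild type at 2 months. Among other classes at 2 months, it was 3272 CPM in the knockout and 5288 CPM in the wild type in endothelial-like barcodes (1 of 11 measured targets higher). The sums were 2549 and 3748 CPM in mural-like ones (2 of 12 higher) and 915 and 1023 CPM in RPE-like ones (4 of 12 higher). In rod-like ones, where Mt1 and Mt2 were called lower, they were 739 and 833 CPM, with 3 of 6 higher in the knockout. The part of these targets was not tested.

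In rod-like barcodes 2 of 5 measured members were called at 1 month (7.42% of all genes) and 5 of 7 at 2 months (5.79%). At 1 month Mt1 was lower in the knockout (75.6 CPM, against 219 CPM in the wild type, log2 -1.53) and Trf higher (58.4 CPM, against 20.8 CPM in the wild type, log2 1.43). At 2 months Mt1 stood at 64.9 CPM in the knockout and 317 CPM in the wild type, Mt2 at 7.98 CPM in the knockout and 83.5 CPM in the wild type, and Mt3 at 17 CPM in the knockout and 69.8 CPM in the wild type. Trf stood at 30.9 CPM in the knockout and 293 CPM in the wild type. The RPE transcripts in these barcodes were lower in the knockout as well, as given above, and their part in these 4 calls was not tested. Fth1, at 46.2% of its RPE-like level in the knockout and 96.7% in the wild type, was at 1015 CPM in the knockout and 2208 CPM in the wild type (log2 -1.12), and with the RPE profile subtracted its log2 ratio was the same. The 2-month rod-like barcodes numbered 49 in the knockout and 108 in the wild type, nearly all in clusters 16 (22 knockout, 35 wild type) and 21 (27 knockout, 70 wild type), while most at 1 month were in clusters 6 and 11. Tfrc, at 62.9 CPM in the knockout and 88.5 CPM in the wild type, had an interval that includes 0.

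The genes whose levels were most like those of each member were found over 25 class-by-library sums, with Pearson's r of log2(CPM + 1). The sums share libraries and free RNA, and the 9 members were left out of the ranking. Mt1 was most like Nt5dc2, Tmem56 and Ermn (r 0.97, 0.97 and 0.96), Mt2 most like Tmem56, Itgb8 and Enpp2 (r 0.97, 0.97 and 0.96), and Mt3 most like Rgr, Ttr and Cltrn (each r 0.97). Trf was most like Nt5dc2, Slc22a8 and Rpe65 (each r 0.94). Mt1 and Mt2 were more alike (r 0.98) than either was to Mt3 (r 0.90 and 0.88). Fth1 was most like Ctsz, Pla2g15 and Hexa (r 0.88, 0.87 and 0.86), and Ftl1 most like Lipa, Plin2 and Npc2 (r 0.92, 0.92 and 0.91). Slc40a1 was most like the macrophage genes C3ar1, Cd33 and Cd163 (r 0.91, 0.89 and 0.89), and Tfrc most like Faah, Gm17018 and Mrpl34 (r 0.88, 0.87 and 0.87). For Hjv, at 0 in most sums, the closest were Upk3b, Map6d1 and Htr3a (r 0.74, 0.73 and 0.72), which is no finding in counts this sparse.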

How the data were processed

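The authors deposited raw UMI counts per gene and barcode as whole numbers, per the file headers, which name Cell Ranger 6.0.2 (1 month) and 7.0.1 (2 months). Cell Ranger 3.0, Seurat 4.0 and mm9 appear in the submitters' processing notes. Intron and strand settings were not given in the sources used here. Kept barcodes had 300 or more genes and no more than 30% mt- UMIs. Scrublet marked 26 of 6555 (0.397%), too few to count as having worked, and these were removed. Clusters (scanpy 1.11.5, 2000 variable genes, 30 components, 15 neighbours, leidenalg 0.10.2, resolution 1.0, no integration) were named "X-like" from marker lists, and 2 stayed unnamed. Raw counts were summed per class and library. Log2 ratios had 0.5 UMIs added to each sum and were tested on simulated counts. Intervals are exact 95% Poisson, binomial or conditional binomial ones and cover counting error only. Classes with at least 30 barcodes in both libraries were compared. The members, gene lists and markers were chosen with earlier results of these data known. Named list genes are those measured and at least 2-fold apart, plus the 3 highest non-members at 2 months; Heph, Ncoa4, Slc11a2, Hmox1, Mtf1 and Slc30a1 and the Hjv neighbours were named after their values were seen. Of the gene identifiers, 32158 matched GENCODE M21. The mm9 and GRCm38 builds were not mixed: every coordinate printed comes from GRCm38 annotation.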

Additional observations from a re-analysis of the deposited data

Results flagged for a closer look

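Several members differed between knockout and wild type in opposite directions at 1 and 2 months, with 1 library per group, so the difference between the ages was not tested. In fibroblast-like barcodes the log2 ratio of knockout over wild type was 1.54 at 1 month and -0.57 at 2 months for Mt1, and 1.67 at 1 month and -1.46 at 2 months for Mt2. In macrophage-like barcodes it was 1.89 at 1 month and -0.51 at 2 months for Mt1. In rod-like barcodes it was 1.43 at 1 month and -3.22 at 2 months for Trf, where the RPE transcripts stood at 0.233% of their RPE-like level in the knockout and 1.58% in the wild type at 2 months. Age, software version and the clusters that hold each class changed together, and they cannot be told apart.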

How the results depend on the processing

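No paired analysis was possible because each group had 1 library. No alternative reversed a called ratio. The count of members at least 2-fold apart in RPE-like barcodes stayed at 0 under every alternative at 1 month. At 2 months it was 1 (Hjv) and fell to 0 with only barcodes under 1000 CPM of Malat1, to 0 with only those at or above it (chosen after seeing the data), and to 0 after thinning, since fewer than 30 Hjv UMIs were then left. Where Hjv was measured, its log2 ratio ran from 4.51 to 4.75 over 10 alternatives. The list count at 1 month was 5 of 50 measured, with the share of all measured genes called, 6.28%, in brackets from here on. It became 0 of 29 (8.33%) with at most 15% mt- UMIs, 3 of 33 (8.38%) with at least 1000 genes and 1 of 26 (8.77%) at Leiden resolution 0.5. It was 2 of 26 (9.32%) with more high doublet scores removed and 1 of 46 (5.93%) under 1000 CPM of Malat1. After thinning it was 0 of 25 (4.27%), and with a minimum of 10 UMIs 9 of 76 (15.4%). At resolution 0.5 a cluster led by hemoglobin genes took most shallow RPE barcodes, leaving 34 in the knockout and 50 in the wild type. At the 15% limit such a cluster, with Ttr, Rgr and Rpe65 also among its leading genes, held 102 knockout and 139 wild-type barcodes of 1 month. That left 66 RPE-like barcodes in the knockout and 95 in the wild type. The list count at 2 months, 2 of 97 (4.34%), became 6 of 101 (8.31%) with a minimum of 10 UMIs and 0 of 92 (4.03%) in Malat1-rich barcodes. After thinning it was 3 of 73 (4.31%), namely Ncoa4, Mtf1 and Slc30a4. In Malat1-poor barcodes it was 2 of 93 (3.21%), with other genes (Alad and Sco2). Calls in other classes, 17 of 58, fell to 8 after thinning, and with the RPE-like profile subtracted (chosen after seeing the data) they were 19 of 49, among them mural-like Mt1 and Mt2, whose wild-type counts became 0. In RPE-like barcodes at 1 month the log2 ratio ran from 0.01 to 0.39 for Mt1 and from 0.25 to 0.73 for Mt2. It ran from -0.42 to 0.06 for Fth1 and from -0.21 to 0.12 for Ftl1. At 2 months it ran from -0.25 to 0.00 for Mt1, from -0.15 to 0.06 for Mt2 and from -0.22 to 0.30 for Mt3. For Fth1 it was -0.22 to 0.04, for Ftl1 -0.15 to 0.21, for Trf -0.33 to 0.52 and for Tfrc -0.53 to 0.37. The cause was not tested. Subtraction of the all-barcode profile was not run at 2 months, where the estimated fractions were 28.2% in the knockout and 88.7% in the wild type, taken from red blood cell and immunoglobulin genes. The depth of RPE-like barcodes at 1 month limits genes such as Tfrc, Slc40a1 and Hjv.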
